A study of Mus musculus with 6 samples.

Results

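Among the genes that cells switch on within a short time of a stimulus are the IER, ZFP36 and GADD45 families, which are described here in mouse thymocytes. The 9 genes are Ier2, Ier3 and Ier5, Zfp36, Zfp36l1 and Zfp36l2, and Gadd45a, Gadd45b and Gadd45g. They were chosen by name, as every probe set that the platform annotation assigns to 1 of these symbols. This gave 16 of the 45037 probe sets that are not controls, and 9 of 18193 named genes. RNA of CD4-negative, CD8-negative (double negative) thymocytes, sorted by flow cytometry per the labels, was hybridised to 6 single-colour arrays. The group of 3 wild type mice was set against 3 mice that lack both Egr1 and Egr3, with 1 animal for each array, all per the labels. Sample titles and source names speak of the whole thymus and of amplified mRNA. The sources used here do not give strain, age, sex, the kind of knockout allele, any treatment other than sorting or the scanner software.

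IER proteins are short-lived nuclear or membrane proteins made in response to growth factors, stress and antigen receptor signals. ZFP36 proteins carry a pair of CCCH zinc fingers, bind AU-rich elements of messenger RNAs and bring the CCR4-NOT deadenylase to them, which shortens the life of many cytokine and growth-regulating transcripts. Loss of Zfp36l1 and Zfp36l2 together in thymocytes is known to disturb the double negative stage and to lead to T cell leukaemia. GADD45 proteins are small acidic proteins that bind the kinase MAP3K4 and so engage the p38 and JNK kinases, and that also bind the replication clamp PCNA and the inhibitor p21. EGR1 and EGR3 are zinc finger transcription factors induced by the same kinds of signals.

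Some facts about the arrays bear on all values. A probe set without a target can read up to the level of the brightest of 27 control probe sets for Bacillus subtilis genes, which was between 19.0 and 29.9 on the 6 arrays. The knockout labels were not borne out by the Egr1 probe set, which read 508, 509 and 455 in wild type and 1757, 1696 and 1221 in the other group. Its position relative to the deleted part is not given, so each direction below holds for arrays as labelled, called knockout-labelled here. Wild type array 1 stands apart from the other wild type arrays in sex-linked genes. The Y-linked Eif2s3y read 476 there, against 13.2 and 0.625 on wild type arrays 2 and 3 and 186 to 265 in the knockout-labelled group, while the female transcript Xist read 1439 there and between 3910.4 and 6015 on the 5 others. Xist and Eif2s3y are transcripts normally made by female and by male cells, and wild type array 1 and all 3 knockout-labelled arrays carried signal of both. The Y-linked Kdm5d and Uty also read clearly on wild type array 1 (144 and 63.7). On the knockout-labelled arrays Kdm5d read 17.5, 29.5 and 10.3 and Uty 11.4, 11.6 and 23.4, near or under the brightest bacterial control. Male signal there thus rests mainly on Eif2s3y. Whether each array holds 1 animal was not tested. Wild type array 3 stands apart in granulocyte genes, whose summed intensity (14 genes) was 409 there, 12378 and 27559.6 on wild type arrays 1 and 2, and between 21001 and 30668 on the knockout-labelled arrays. Wild type array 3 also had the highest erythroid sum, 3915, against 488 and 73.9 on wild type arrays 1 and 2. Results are therefore also given without single arrays. Having just 3 arrays in each group limits how precise any value can be.

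Of the 9 genes, 4 were higher in the knockout-labelled arrays and none was lower. These were Ier2, Zfp36l2, Gadd45b and Gadd45g, with changes between 1.35 and 1.64 on the log2 scale of intensity plus 16. A gene was called at a limma p of 0.05 adjusted over the 13187 genes tested, each represented by its brightest probe set. Over all of these genes, 4.14% were called higher and 2.84% lower. The median change of the 9 genes was 1.00, against -0.01 over all genes tested. In 6 of the 9 the groups did not overlap, with each knockout-labelled array above each wild type array, which was so for 13.4% of all genes tested. The 2 genes of these 6 that missed the threshold were Ier3 and Zfp36. At an unadjusted p under 0.05, 6 of the 9 genes were higher and 0 lower, against 11.1% and 9.79% of all genes tested. Counted by probe set, 15 of 16 passed the filter on dim signals, and 5 of these 15 were called, all higher, against 5.03% of 27022 probe sets in either direction. The RNA comes from many cells at once, so fewer cells of a type and less RNA per cell cannot be told apart in any of these values.

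**Figure D1:**
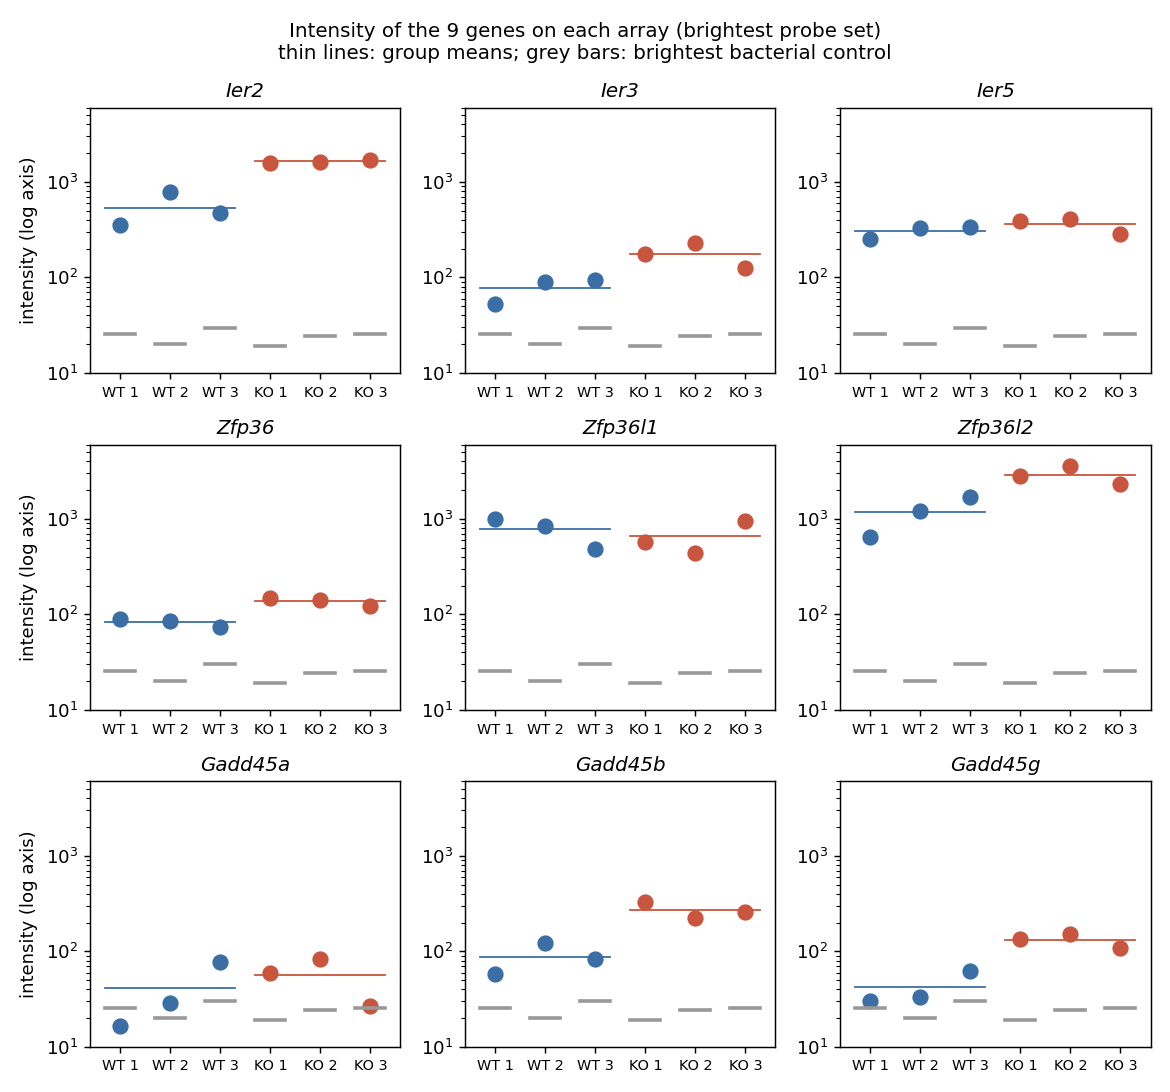
Intensity (log axis) of the brightest probe set of each of the 9 genes on the 3 wild type (WT, blue) and 3 knockout-labelled (KO, red) arrays; thin lines are group means and grey bars the brightest bacterial control of each array. The groups are apart in 6 of the 9 panels, among them Ier2 with 355 to 781 against 1593 to 1706, and overlap in Ier5, Zfp36l1 and Gadd45a.

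The stretch before the transcription start was looked up because EGR proteins act through sites in promoters. RefSeq promoter windows (GRCm38.p6) were found for 7 of the 9 genes, and not for Ier2 and Zfp36l2. In each window the 250 bases before the start were searched on both strands for the EGR site GCGNGGGCG, the AP-1 site TGANTCA, the cAMP response element TGACGTCA, the CCAAT box CCAAT, the TATA box with letters TATAAA, the CArG box bound by SRF and the kappaB site. Shown are the windows of the called genes Gadd45b and Gadd45g and that of Zfp36, which is the other gene with an EGR site. They lie at Gadd45b chr10:80929841-80930090, plus strand, Gadd45g chr13:51846425-51846674, plus strand, and Zfp36 chr7:28379229-28379478, minus strand. Capitals mark the motifs, each sequence is written 5′ to 3′ along the gene, and no different motifs overlap in these windows:
Gadd45b: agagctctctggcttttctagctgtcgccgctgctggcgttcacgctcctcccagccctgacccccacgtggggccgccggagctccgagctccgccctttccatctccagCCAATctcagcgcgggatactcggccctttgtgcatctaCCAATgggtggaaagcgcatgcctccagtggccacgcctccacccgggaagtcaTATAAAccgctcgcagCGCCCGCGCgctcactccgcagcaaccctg
Gadd45g: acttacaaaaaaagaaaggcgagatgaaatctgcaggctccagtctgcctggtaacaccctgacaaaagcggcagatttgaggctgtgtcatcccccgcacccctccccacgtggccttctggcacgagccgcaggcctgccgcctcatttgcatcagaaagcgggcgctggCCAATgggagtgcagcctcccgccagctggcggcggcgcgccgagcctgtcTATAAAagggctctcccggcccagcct
Zfp36: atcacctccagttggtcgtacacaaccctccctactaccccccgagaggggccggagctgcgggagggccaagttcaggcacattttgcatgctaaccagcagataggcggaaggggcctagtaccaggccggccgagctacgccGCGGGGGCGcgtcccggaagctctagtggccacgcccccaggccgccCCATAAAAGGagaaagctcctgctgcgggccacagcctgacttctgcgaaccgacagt

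The capitals in the Gadd45b window are CCAAT boxes at 139 and at 100 bases before the start, the TATA box at 46 and an EGR site on the opposite strand at 30. Those of Gadd45g are a CCAAT box at 78 and a TATA box at 27, and those of Zfp36 an EGR site at 105 and a CArG box at 58. An EGR site was thus found in 2 of 7 windows, against 4.74% of 32536 distinct mouse promoter windows of the same length. Of the 7, 6 held a CCAAT box (33.8% of all windows) and 3 a TATA box (12.3%, Gadd45b, Gadd45g and Zfp36l1, where it shares a base with the CCAAT box). The CArG box of Zfp36 was 1 in 7 (1.48% of all), the kappaB site of Ier3 likewise (7.28%), and the AP-1 site of Zfp36l1 too (6.73%). No window of the 7 held the full cAMP response element (1.56% of all). A match is a run of letters and not a measured binding site.

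Of the IER family, Ier2 rose in the knockout-labelled arrays, Ier3 had a higher mean without passing the test, and Ier5 showed overlapping groups. Ier2 encodes a nuclear protein that is among the first made after growth factor or antigen receptor signals. Probe set 1416442_at read 355, 781 and 476 in wild type and 1593, 1629 and 1706 in the knockout-labelled group. All 3 knockout-labelled values lie above all 3 wild type values, and they lie close together. Its change was 1.64 (SE 0.30, n = 3 and 3, limma adjusted p = 0.00860), a 3.06-fold ratio of mean intensities from 537 ± 219.5 to 1643 ± 57.8 (SD). It ranked 177th by change among the 13187 genes.

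Ier3, a membrane-bound regulator of cell survival that acts on ERK and NF-kappaB signalling (1419647_a_at), read 52.7, 88.5 and 92.9 against 175, 227 and 124. Its groups do not overlap, but the nearest values of the groups are those of wild type array 3 and knockout-labelled array 3. Its change of 1.00 (SE 0.29, 95% interval 0.37 to 1.63) had an adjusted p of 0.0627. Without wild type array 3 it passed, with a change of 1.11 and an adjusted p of 0.0278. Ier5, a stress-responsive relative of Ier2 known to act on the heat shock factor HSF1, read 254, 326 and 340.4 against 392, 404 and 288 on its brightest probe set, 1417612_at. Knockout-labelled array 3 lies among the wild type arrays there. The change was 0.20 (95% interval -0.35 to 0.75, adjusted p = 0.711). The dimmer Ier5 probe sets read between 18.2 and 30.8 (1460009_at, change -0.15, SE 0.26) and between 2.39 and 17.7 (1417613_at, change 0.07, SE 0.26, under the filter), at about the level of the bacterial controls.

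In the ZFP36 family, Zfp36l2 rose, Zfp36 had a higher mean without passing, and Zfp36l1 overlapped between the groups with a lower mean. Zfp36l2, whose protein limits proliferation at the double negative stage, read 651, 1207 and 1681 in wild type (1437626_at) and 2824, 3552 and 2342 in the knockout-labelled group. The spread within each group is wide, and the groups do not overlap. Its change was 1.35 (SE 0.33, adjusted p = 0.0323), a 2.46-fold ratio of mean intensities. This rests on 1 probe set. The others, 1439054_at and 1451034_at, read between 3.86 and 48.3 and between 4.05 and 40.7, and gave -0.07 (SE 0.41) and 0.14 (SE 0.39). With all 3 probe sets averaged, the change was 0.47 and its adjusted p 0.452.

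Zfp36 encodes tristetraprolin, the founding protein of the family and a brake on TNF production. Probe set 1452519_a_at read 90.3, 85.5 and 73.4 against 150.1, 141 and 121. The groups are apart with little spread in either. The change of 0.61 (SE 0.23, 95% interval 0.11 to 1.11) was small and had an adjusted p of 0.144. Zfp36l1, a partner of Zfp36l2 in thymocytes, read 995, 849 and 485 against 570.2, 444 and 951 (1450644_at), with the highest and the lowest of the 6 values in different groups and no separation. Its change was -0.27 (SE 0.35, 95% interval -1.03 to 0.49, adjusted p = 0.727), and a dim second probe set, 1422528_a_at, gave 0.00 (SE 0.26) at 20.1 to 34.8.

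Zfp36l1 and Zfp36l2 ran in opposite order over the arrays. Within the wild type group Zfp36l2 was lowest on array 1 and highest on array 3, and Zfp36l1 was highest on array 1 and lowest on array 3. Within the knockout-labelled group Zfp36l2 was lowest on array 3 and highest on array 2, and Zfp36l1 the reverse. How often other pairs of genes run in opposite order was not counted. The log2 difference of Zfp36l2 over Zfp36l1 within an array was -0.60, 0.50 and 1.76 in wild type and 2.28, 2.96 and 1.29 in the knockout-labelled group. Knockout-labelled array 3 falls below wild type array 3 in this difference, so the groups overlap. The mean shift of 1.62 had a 2-sided exact permutation p of 0.2, where 0.1 is the smallest that 3 arrays against 3 can give.

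**Figure D2:**
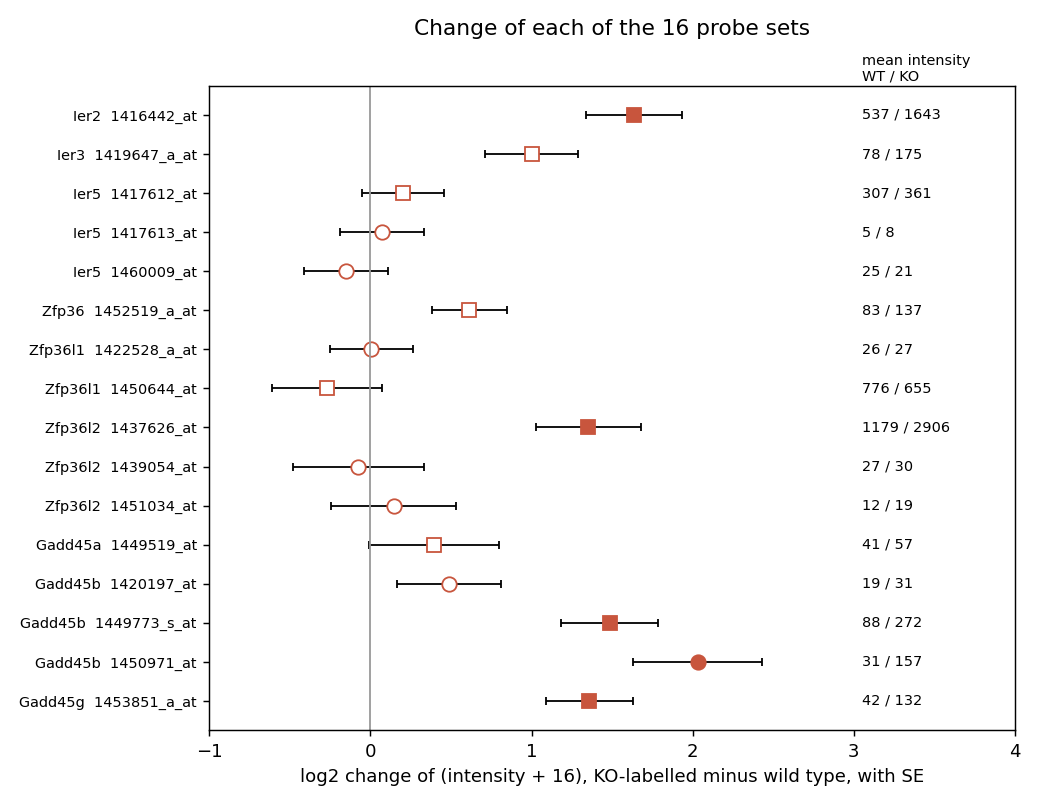
Log2 change with its SE for each of the 16 probe sets (knockout-labelled minus wild type, intensity plus 16); filled symbols passed an adjusted p of 0.05 over all probe sets tested, squares are the brightest probe set of a gene, and the numbers at the right are mean intensities. The 5 filled symbols belong to Ier2, Zfp36l2, Gadd45g and, with a pair of probe sets, Gadd45b.

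Of the GADD45 family, Gadd45b and Gadd45g rose in the knockout-labelled arrays and Gadd45a did not pass. Gadd45b, a gene induced by NF-kappaB and by TGF-beta, read 57.8, 121 and 83.5 in wild type (1449773_s_at) and 331, 225 and 259.8 in the knockout-labelled group. There is a gap between the groups, and wild type array 1 is the lowest of the 6. The change was 1.49 (SE 0.30, adjusted p = 0.0135), a 3.10-fold ratio of mean intensities. A second Gadd45b probe set, 1450971_at, read 3.52, 40.8 and 48.9 against 138, 179.6 and 153, with a change of 2.03 (SE 0.40, adjusted p = 0.0142 over probe sets). Its wild type array 1 value lies under the brightest bacterial control. The third, 1420197_at, read between 4.73 and 34.4 and gave 0.49 (SE 0.32, adjusted p = 0.469).

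Gadd45g, which cytokines induce in T cells (1453851_a_at), read 30.3, 33.5 and 62.9 against 136, 152 and 108. The wild type values lie near the brightest bacterial controls, all 3 above it, and the knockout-labelled values are well clear of them. The ratio of mean intensities was 3.12-fold, and the change was 1.36 (SE 0.27, adjusted p = 0.0130), which the added 16 lowers at these levels. With an offset of 1 in place of 16 the change was 1.65 (adjusted p = 0.0188). Gadd45a, a target of p53 in the DNA damage response (1449519_at), read 16.6, 28.8 and 77.2 against 58.7, 84.0 and 26.9. Each group holds both low and high arrays. The change was 0.39 (SE 0.41, 95% interval -0.51 to 1.30, adjusted p = 0.653).

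Whether members of a family changed unequally was examined within arrays for 4 pairs, chosen with the results known. The difference of Ier2 over Ier5 was 0.46 to 1.22 in wild type and 1.97 to 2.50 in the knockout-labelled group. That of Gadd45g over Gadd45a was between -0.24 and 0.50 against 0.75 to 1.53. The groups do not overlap in these pairs, and each had an exact permutation p of 0.1, the smallest the design allows. Gadd45b over Gadd45a shifted by 1.09 with overlap (exact permutation p = 0.2). Adjusted over the 4 pairs, each p was 0.2. No pair could have reached 0.05 in this design, so these p-values do not show whether relatives changed alike.

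Wild type array 1 was the lowest of the 6 arrays in 7 of the 9 genes, on the centred log2 scale. The exceptions were Zfp36, lowest on wild type array 3, and Zfp36l1, lowest on knockout-labelled array 2. Over all genes tested this array was the lowest in 23.1%, and over the 52 other immediate early genes described below in 18 (34.6%). Among the knockout-labelled arrays, array 3 was the lowest in 6 of the 9 genes, against 34.1% of all genes tested. Zfp36l2, Gadd45a and Gadd45g had the same order of arrays within both groups on that scale. How often other genes share such an order was not counted. Wild type array 1 is the array with Y-linked signal among the wild types, and the part of this in its low values was not tested.

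The changes kept their sign whichever array was left out, but most calls did not hold. For some genes the kept sign was that of a value near 0. Zfp36l1 gave -0.008 (SE 0.36) without knockout-labelled array 2. Gadd45a gave 0.04 (SE 0.42) and Ier5 0.06 (SE 0.25) without wild type array 1. Without knockout-labelled array 1 none of the 9 genes passed limma's adjusted p, and Ier2 then had the same change of 1.64 with a larger SE of 0.38 and an adjusted p of 0.0535. At the same setting the change was 1.32 for Gadd45b (adjusted p = 0.0873), 1.31 for Gadd45g (0.0745) and 1.34 for Zfp36l2 (0.129). Without wild type array 1 Ier2 alone passed (change 1.36), and Gadd45b (1.24, adjusted p = 0.0505), Gadd45g (1.19, adjusted p = 0.0529) and Zfp36l2 (0.96, adjusted p = 0.0713) lay just outside. Without wild type array 2 or knockout-labelled array 2, Ier2 and Gadd45b passed. Gadd45g then had adjusted p-values of 0.0570 and 0.0569, and Zfp36l2 of 0.0841 and 0.118. Without knockout-labelled array 3, Zfp36l2 (adjusted p = 0.0588) was the call of the 4 that was lost. Without wild type array 3, the one almost free of granulocyte transcripts, 5 genes passed, with Ier3 added. The number of calls over all genes moved as well, from 920 with all arrays to 279 without knockout-labelled array 1 and 1903 without wild type array 3.

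**Figure D3:**
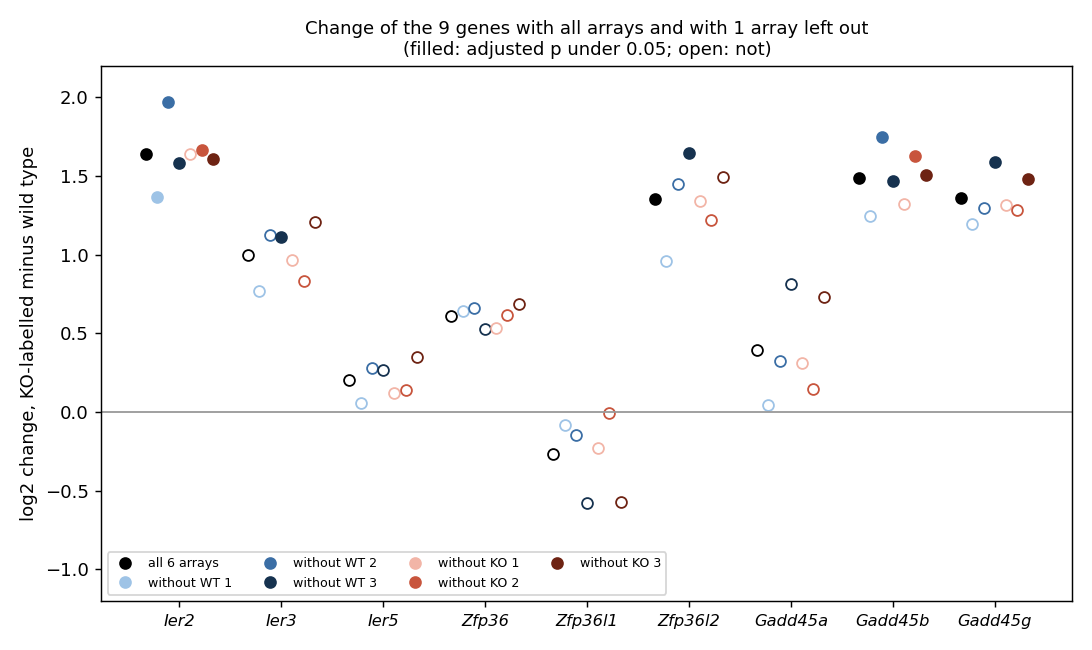
Log2 change of the 9 genes with all 6 arrays (black) and with each wild type (WT, blue) or knockout-labelled (KO, red) array left out; filled points passed an adjusted p of 0.05. All points of a gene lie on the same side of 0, some of Ier5, Zfp36l1 and Gadd45a very close to it. Ier2 is open only without KO 1, and Zfp36l2 is filled only with all arrays and without WT 3.

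Genes with the profile most like a member were sought for the 3 members of smallest p, by the root mean square difference over the 6 arrays between log2 profiles centred on their own means. For Ier2 these were Tes, a focal adhesion protein gene (difference 0.09), and Tnfaip8l1 (0.13), where the median over all genes was 0.94. Tes read 125, 306 and 214 in wild type and 678, 672 and 688 in the knockout-labelled group. For Gadd45g they were the acute phase gene Saa3 (0.09) and Ap3m2, a subunit of a vesicle coat adaptor (0.10, median 0.80). Saa3 read 17.4, 25.3 and 45.3 in wild type, the value of array 1 under the brightest bacterial control. With 1 array left out, the Saa3 call held only without wild type array 3. With all its probe sets averaged, Ap3m2 was not called by limma (adjusted p = 0.0835). For Gadd45b they were Prr13 (0.07) and the orphan nuclear receptor gene Nr4a3 (0.12, median 0.87). Nr4a3, itself an early response gene, read 9.02, 22.7 and 15.8 against 88.1, 72.3 and 70.6. Of its wild type values, only that of array 2 lies above the brightest bacterial control. With all its probe sets averaged, Nr4a3 was not called by limma (adjusted p = 0.562).

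The other immediate early genes, a list of 59 of which 52 were tested, were called higher in 17 cases and lower in 2, against 4.14% and 2.84% of all genes tested. The median change of the list was 0.58. Beside the targeted Egr1 (change 1.60), the 4 of smallest p that rose were Fosl2, an AP-1 subunit (3.13, SE 0.30), the kinase gene Sgk1 (1.95, SE 0.26), the transcription factor gene Klf4 (2.06, SE 0.28) and Rgs1, a brake on G protein signalling (1.84, SE 0.25). Fosl2 read 47.7, 50.1 and 19.2 in wild type against 539.7, 409 and 419.7. Those that fell were the growth regulator Myc (-1.86, SE 0.25) and Dusp4, a phosphatase of MAP kinases (-1.67, SE 0.37). The call of Dusp4 held without wild type array 3 and was absent when any other 1 array was left out (adjusted p up to 0.0830), while the other genes named here from this list passed at each of the 6. The brighter Egr3 probe set read 92.2, 83.1 and 30.8 in wild type and 34.4, 45.8 and 32.9 in the knockout-labelled group. Each value lay above the brightest bacterial control of its array, and the groups overlap. The change was -0.59 (SE 0.33, limma adjusted p = 0.348 over genes). The dimmer Egr3 probe set read 34.2, 30.5 and 30.5 against 12.5, 32.1 and 55.4, with a change of -0.07 (SE 0.32). Without knockout-labelled array 1, 8 genes of this list were higher.

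Of 24 tested genes of deadenylation, decapping and decay, 1 was higher (4.17%) and 0 were lower, near the 4.14% and 2.84% of all genes tested. It was Tob1, an adaptor that brings the CCR4-NOT complex to its targets (1.19, SE 0.23, adjusted p = 0.0114). Without knockout-labelled array 1 its adjusted p was 0.0689. At an unadjusted p under 0.05, 5 of the 24 were higher and 0 lower, against 11.1% and 9.79% of all genes tested. None of 15 other proteins that bind AU-rich elements or kinases acting on ZFP36 was called by limma. At an unadjusted p under 0.05, 2 were higher and 2 lower, to be read against the same shares. Without wild type array 3, 3 were called lower, as were 950 of all 13163 genes tested there. Of 25 tested transcripts known as ZFP36 family targets, 5 were higher (20%) and 2 lower (8%), against 4.14% and 2.84% of all genes tested. The median change of this list was 0.10. The 4 higher of smallest p were the cytokine gene Il10 (2.74, SE 0.32), the survival gene Bcl2 (1.18, SE 0.24), the activation marker Cd69 (1.27, SE 0.29) and the phosphatase gene Dusp1 (1.39, SE 0.33). The fifth was Tnf (1.10, SE 0.26), named as the remaining one after its value was seen. Tnf read 8.03, 10.2 and 5.15 in wild type, all under the brightest bacterial control, against 34.0, 33.3 and 39.7. With 1 array left out, its call held only without wild type array 3. Of the wild type values of Il10, only that of array 1 (39.7) lay above the control. Myc and the kinase gene Pim3 (-0.89, SE 0.23) were lower. Cd69, Dusp1 and Myc are also in the immediate early list. Without knockout-labelled array 1 the count was 1 higher and 1 lower, namely Il10 and Myc, which also passed without each other array. It was 3 higher without wild type array 1 and 2 without wild type array 2 or knockout-labelled arrays 2 or 3.

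Among 16 tested genes whose products bind GADD45 proteins or act with them, 3 were lower (18.75%) and 1 higher (6.25%). Over all genes tested, 2.84% were lower and 4.14% higher. The median change of the list was -0.12. The base excision repair endonuclease gene Apex1 fell by 1.14 (SE 0.18, adjusted p = 0.00377), from 9412, 7496 and 8450.2 to 3943, 3482 and 4151. The replication clamp gene Pcna fell by 0.79 (SE 0.17, adjusted p = 0.0216) and Cdkn1a, the p21 inhibitor, by 1.04 (SE 0.27, adjusted p = 0.0450). The nucleotide excision endonuclease gene Ercc5 rose by 1.18 (SE 0.23, adjusted p = 0.0129). Apex1 passed without each array in turn. Without any 1 array other than wild type array 3, Pcna (adjusted p up to 0.125) and Cdkn1a (up to 0.237) did not, which left Apex1 as the only one lower, and Ercc5 was lost without knockout-labelled arrays 1 or 2 (up to 0.0664). None of 9 tested partners of IER proteins was called by limma with all arrays (median -0.18). At an unadjusted p under 0.05, 1 was higher and 1 lower, against 11.1% and 9.79% of all genes tested. Without wild type array 3, 2 were called lower, as were 950 of all 13163 genes tested there.

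**Figure D4:**
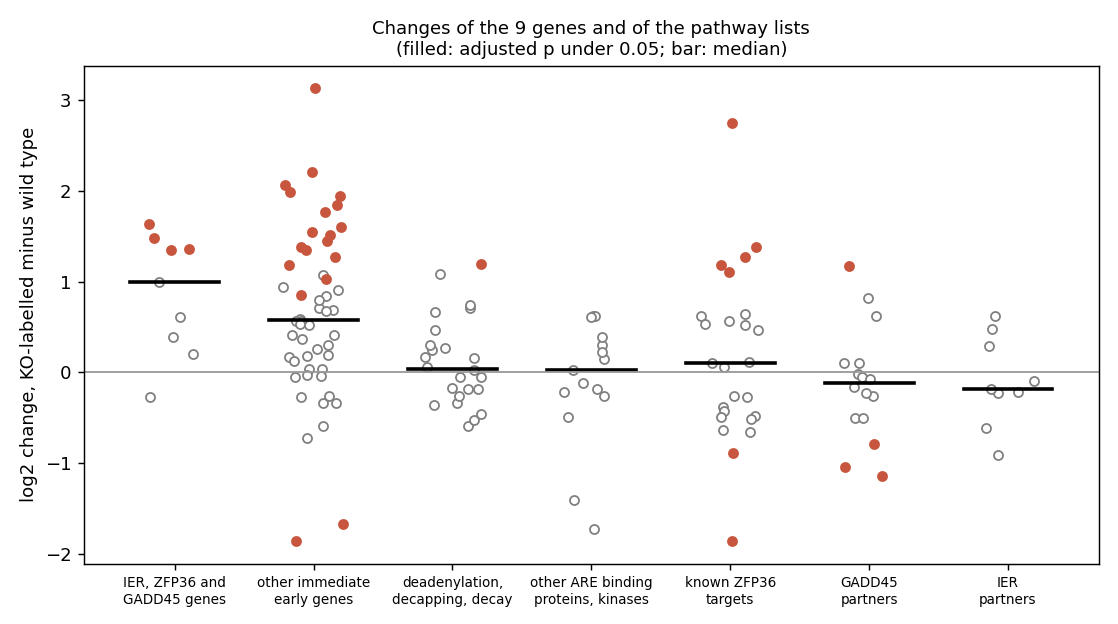
Log2 changes (knockout-labelled minus wild type) of the tested genes of the 3 families and of the 6 pathway lists; filled points passed an adjusted p of 0.05 and bars are medians. The medians are 1.00 for the 9 genes and 0.58 for the other immediate early genes, and between -0.18 and 0.10 for the other lists. ARE stands for AU-rich element.

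Markers of cell types other than thymocytes were read beside these values. All 15 named markers of double negative thymocytes were above the brightest bacterial control on at least 1 array, and Cd4 was below it on all 6, unlike Cd8a and Cd8b1. The summed intensity of these 15 was 44698 to 56179 in wild type and 32731 to 34792 in the knockout-labelled group, with 3 called lower (Ptcra, Il2ra and Dntt) and 1 higher (Il7r). The granulocyte sums given above overlapped between the groups, and 1 of 13 tested granulocyte genes, Stfa3, was called higher. The median change of the granulocyte list was nevertheless 1.63, with wild type array 3 far below the other arrays. It was 0.84 for NK and innate-like lymphocytes and -0.49 for double negative thymocytes. For the other cell type lists it lay between -0.44 and -0.05, against -0.01 over all genes tested. Ier2 read 355, 781 and 476 on wild type arrays 1, 2 and 3, where the granulocyte sums were 12378, 27559.6 and 409. On the knockout-labelled arrays it read 1593 to 1706, with granulocyte sums of 21001 to 30668. Whether Ier2 follows the granulocyte content was not tested. Macrophage and monocyte genes summed to between 1114 and 3068 against 1995 to 2363 (1 of 10 higher, Cd14), and dendritic cell genes to between 1483 and 3852 against 1500.5 to 2367 (none of 7 called by limma, 1 lower at an unadjusted p under 0.05). B cell genes, with Ighm the largest part on each array, summed to between 6459.8 and 8993 against 5541 to 6264. Of 8 tested B cell genes, Cd79b was called higher and Ighm lower. Genes of NK and innate-like lymphocytes summed to between 11505 and 16396 against 14604 and 15414, and 5 of 9 were higher (Nkg7, Klrd1, Gzmb, Tbx21 and Il2rb). Most of each sum was Gzma, which read 10940, 10727 and 15852 against 11986, 13005 and 10488 (change -0.08). These sums therefore say little of the other genes of the list. Erythroid sums were 488, 73.9 and 3915 on wild type arrays 1, 2 and 3, against 383 to 456 in the knockout-labelled group. Those of epithelium and stroma, with Epcam the largest part on each array, were between 523 and 2117 against 1177 and 3176. No gene of either list was called by limma, with 0 and 1 at an unadjusted p under 0.05. These small counts are named after their values were seen. They stand beside 4.14% called higher and 2.84% called lower over all genes tested. At an unadjusted p under 0.05 the shares over all genes were 11.1% higher and 9.79% lower. At or below the bacterial control on all arrays were C1qc, Ncr1, Col1a1 and Pecam1. The part of the markers that moved with the groups in the rise of the 4 genes was not tested.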

How the data were processed

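The authors deposited 1 linear intensity for each of 45101 probe sets and each array. Each array has a mean of 150.0 over the middle 96% of values, so arrays were scaled to a common level before deposit; the sources used here do not give the method. After 64 control probe sets were left out, 34945 of 45037 had 1 gene symbol in the platform annotation, 932 several and 9160 none, and symbols were updated through RefSeq (GRCm38.p6), where 34741 matched. An offset of 16 was added, log2 taken and each array centred on its median. Probe sets under the 40th percentile of mean log2 (an intensity of 13.2) were left out, and 27022 were tested across all features with limma 3.58.1 (R 4.3.3, eBayes with intensity trend, Benjamini-Hochberg). At gene level the fit was repeated on the brightest probe set of each of 13187 genes. The SE of a gene's brightest probe set comes from the gene fit, and that of other probe sets from the probe set fit, without the filter for a probe set under it. The members, lists and pairs were chosen with earlier results of these data known. Named are all members, Egr1 and Egr3, up to 4 called genes of smallest p in each direction of a list, and the nearest 2 profiles of 3 members. Groups and replicate numbers come from the labels.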

Additional observations from a re-analysis of the deposited data

How the results depend on the processing

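The 4 calls of Ier2, Zfp36l2, Gadd45b and Gadd45g were made by the same genes without centring, after quantile normalization, with an offset of 1 or of 64, without the filter or with it at the 60th percentile, without the trend, and with probe sets without an _x_ or _s_ suffix. The sign of each of the 9 changes was the same at all 17 alternatives, with values near 0 among those of Ier5, Zfp36l1 and Gadd45a. Array weights gave 6 calls (Ier3 and Zfp36 added), and means over probe sets gave 4 with Ier3 in place of Zfp36l2. Same-numbered arrays of the groups did not deviate together (correlations of -0.05, -0.13 and -0.29), which gives no sign of a pairing by number. With so few arrays these values cannot exclude it. With the replicate number as a block, 1 of the 9 genes (Ier2) and 369 of all genes were called, against 2909 of all genes with array weights.

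With 1 array left out, the count ranged from 279 to 1903 over all genes, from 0 to 5 of the 9 genes, from 8 to 20 higher and 1 to 3 lower among the other immediate early genes, from 0 to 2 higher for decay, from 0 to 1 higher and 0 to 3 lower for AU-rich element binding, from 1 to 7 higher and 1 to 3 lower for ZFP36 targets, from 0 to 1 higher and 1 to 4 lower for GADD45 partners and from 0 to 2 lower for IER partners. Under the block, 11 other immediate early genes, 0 decay genes, 1 target and 0 GADD45 partners were higher, and 1 target and 1 GADD45 partner lower. With array weights 4 decay genes were higher and 1 lower, 2 AU-rich element binding genes higher and 2 lower, 5 targets lower, 3 GADD45 partners higher and 2 IER partners lower. Decay genes called higher were 2 with values as deposited, quantile normalization, an offset of 64, the 60th percentile, means over probe sets and probe sets without a suffix, with 1 lower in the last pair of settings. AU-rich element binding genes called lower were 1 with quantile normalization and, with means over probe sets, 2 beside 1 higher. Lower targets were 1 without an intensity trend, with means and without suffixes, and lower GADD45 partners 1 without a trend. The number of arrays limits these counts, and probe sets near the bacterial controls carry little signal.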
